A study of Mus musculus with 3 samples.

Results

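The genes described here encode the protein subunits of the mitochondrial respiratory chain and ATP synthase. They were chosen by symbol, as the rows named Nduf (with a, b, c, s or v and a digit), Sdha to Sdhd, Uqcr, Cox4 to Cox8, Atp5, and mt-Nd, mt-Co, mt-Atp or mt-Cytb. The rule found 98 of the 32285 genes in the tables, 85 in the nucleus and 13 in the mitochondrial DNA. By complex, the nuclear members comprised 36 genes of complex I, 4 of complex II, 8 of complex III, 20 of complex IV and 17 of complex V, with Ndufa4 and Ndufa4l2 placed in complex IV, where Ndufa4 is now assigned. The mitochondrial members comprised 7 genes of complex I, 1 of complex III, 3 of complex IV and 2 of complex V.

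RNA of single cells was counted in 3 libraries from the mouse medial prefrontal cortex, a frontal cortical region. The estrus library came from 2 estrous female mice, the diestrus library from 2 diestrous female mice and the male library from 2 male mice. Each group was 1 library of pooled animals, so differences between estrus, diestrus and male have no replicates and no test, and the sex and cycle stage cannot be told apart from the library. The sources used here do not name the strain, age or genotype. The tissue of every library was opened with papain, cleaned on a Percoll cushion and loaded as 15000 cells on 10x Genomics 3′ v3.1 chips, a method that reads the 3′ end of polyadenylated RNA and counts each molecule once by its unique molecular identifier (UMI).

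The respiratory chain sits in the inner mitochondrial membrane. Complex I (NADH dehydrogenase) and complex II (succinate dehydrogenase, also an enzyme of the citric acid cycle) pass electrons to ubiquinone, complex III passes them to cytochrome c, and complex IV (cytochrome c oxidase) passes them to oxygen. Complexes I, III and IV pump protons, and complex V (ATP synthase) uses the gradient to make ATP. Complex II is wholly nuclear encoded, whereas each of the other complexes also has subunits encoded in the mitochondrial DNA. That DNA is read as long polycistronic transcripts, so the 13 mitochondrial members are not independent measurements. In brain, fast-spiking interneurons marked by parvalbumin are known for dense mitochondria, and mature red cells for having none.

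The labels call the cells total neurons of the region, but the data held many other cell types. Barcodes with at least 500 genes were assigned to a class by 6 marker genes per class. Red cells were assigned by 5 markers, haemoglobin genes and Alas2, with no minimum number of genes. The estrus library gave 12463 assigned cells of 14476 barcodes, the diestrus library 12073 of 18052 and the male library 12746 of 19555. Glutamatergic neurons numbered 1677, 2323 and 2208 in the estrus, diestrus and male libraries, and GABAergic neurons 197, 447 and 414. Microglia, endothelial cells, oligodendrocytes and astrocytes made up most of the rest, with 3204, 2770, 1871 and 1341 cells in estrus. In the 11 classes with cells in every library, red cells apart, all 6 markers had UMIs in their class in every library. An ependymal class was assigned as well, with 76 cells in diestrus and 0 in estrus and male, and is not described below. Between 68 and 97 barcodes were shared by each pair of libraries, and none by all 3. Fewer cells of a type and less RNA per cell are separable here only within the assigned classes.

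The libraries differed in depth. They held 152291602, 144738154 and 115632520 UMIs in estrus, diestrus and male, and the median nuclear UMIs of a glutamatergic neuron were 36051, 19875 and 10155. All levels are therefore given as counts per 1000000 UMIs of nuclear genes in the class (CPM), so that mitochondrial RNA does not enter its own denominator. Over all barcodes the estrus library was also lowest in the nuclear members: their UMIs were 2.11% of nuclear UMIs there, against 2.58% in diestrus and 2.44% in male. These shares mix levels with the cell classes, whose shares differed: microglia were 22.1%, 13.1% and 11.6% of barcodes in estrus, diestrus and male. Comparisons between classes below were made within libraries, with the library as a block, and the ones that depend on a single library are named.

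By their mean over the libraries, GABAergic neurons and the mural cells of vessels had the highest nuclear-member levels, and microglia the lowest among the brain classes. In glutamatergic neurons the 85 nuclear members summed to 28007, 30174 and 26066 CPM in estrus, diestrus and male (28082 ± 2055, SD, n = 3). GABAergic neurons had 35095, 32065 and 33367 CPM, above the glutamatergic value in each library. Microglia had 9483, 14673 and 18165 CPM (14107 ± 4369, SD, n = 3), and none of their libraries reached any neuronal library. Smooth muscle cells had 29570, 35982 and 39824 CPM, and pericytes, the contractile cells of capillaries, had 25900, 32871 and 35635. Oligodendrocytes (19086 ± 2669), their precursors (17346 ± 2814), astrocytes (22088 ± 2871), border macrophages (21447 ± 6792), endothelial cells (23750 ± 6073) and fibroblast-like cells (28182 ± 8295; all SD, n = 3) lay between. Neighbours in this order overlapped within their spread.

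The mitochondrial members followed another order. Of the 11 brain classes, smooth muscle cells had the highest mean, with 80372, 89739 and 80257 CPM in estrus, diestrus and male (83456 ± 5441, SD, n = 3). Fibroblast-like cells reached 85933 and 88224 in diestrus and male but 42453 in estrus, where the class held 24 cells. Microglia had the lowest mean, with 16216, 22556 and 22301, and oligodendrocyte precursors the next, with 16906, 24811 and 21769; in male the precursors were the lower of the 2. The ratio of mitochondrial to nuclear members had its lowest mean in pericytes (1.30, 1.14 and 0.817) and highest in border macrophages of the estrus library (4.13, against 2.15 in diestrus and 1.89 in male). Oligodendrocytes had ratios of 3.14, 2.72 and 2.18, and their precursors 1.18, 1.40 and 1.09, so the mature cells were higher in every library. In 7 of the 11 brain classes the ratio was highest in the estrus library, the exceptions being glutamatergic neurons, GABAergic neurons, oligodendrocyte precursors and fibroblast-like cells.

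**Figure D1:**
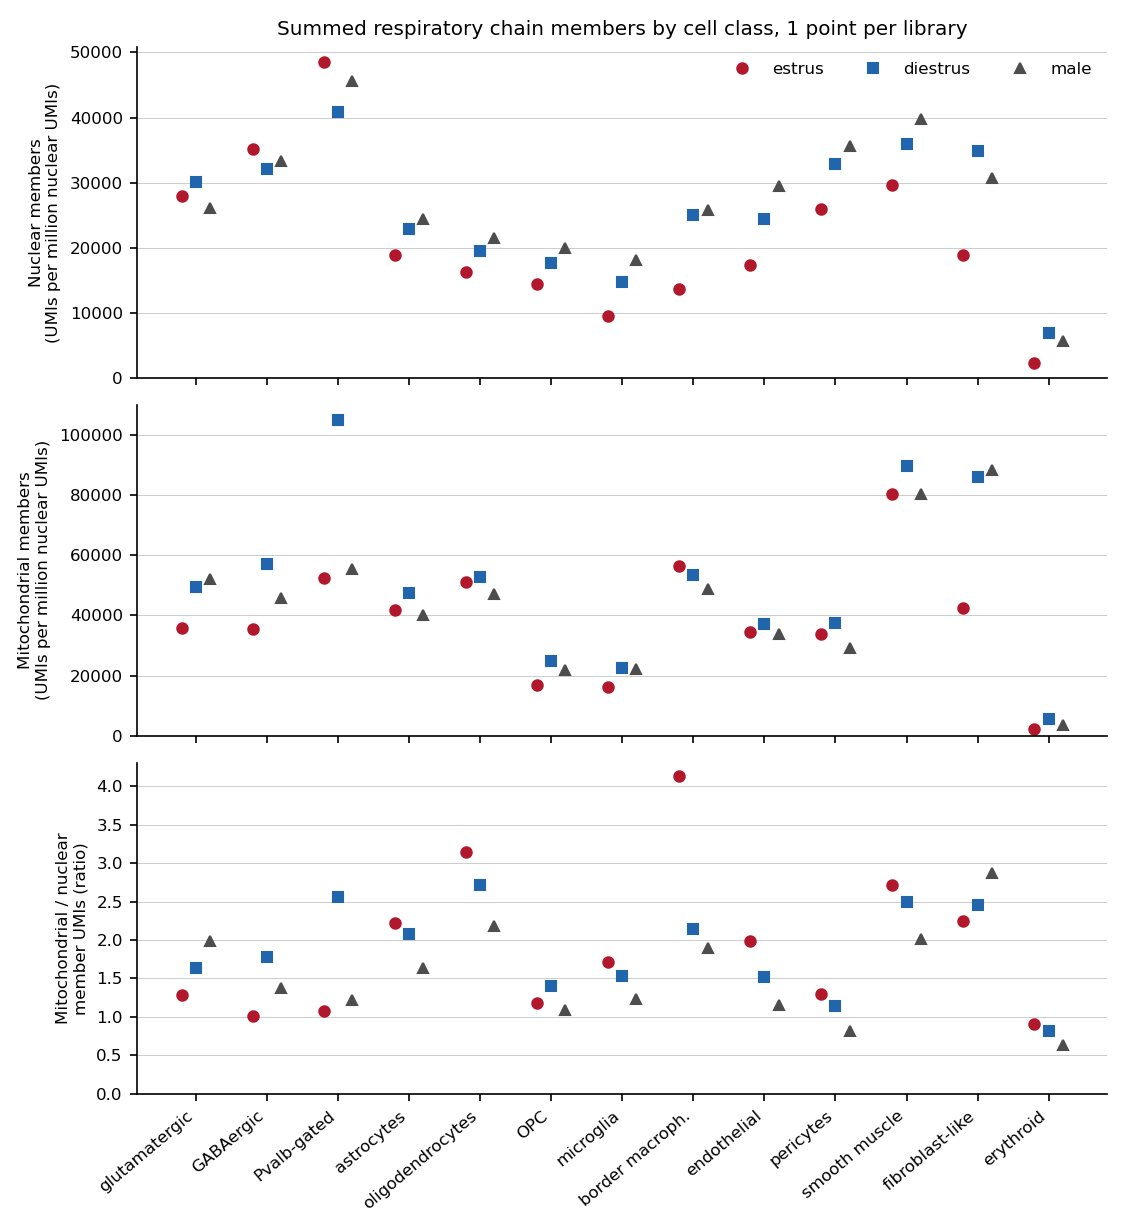
Summed CPM of the 85 nuclear and the 13 mitochondrial members, and the ratio of the 2 sums, by cell class; each point is 1 library. Smooth muscle cells lie at 80257 to 89739 CPM in mitochondrial members, and microglia at 9483 to 18165 in nuclear members, with the lowest mean of the brain classes.

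Red cells were taken as the background for RNA free in the droplets. Their nuclear members summed to 2335, 6872 and 5656 CPM in estrus, diestrus and male and their mitochondrial members to 2119, 5578 and 3552. With haemoglobin taken out of the denominator the same cells had 28544, 59562 and 48806 CPM for the nuclear members, within or above the range of the brain classes. The part of such RNA in each class's level was not tested.

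GABAergic neurons were higher than glutamatergic neurons in nuclear members and not in mitochondrial ones. Of 78 nuclear members tested, 49, Cox6a2 among them, were higher and 0 lower (edgeR quasi-likelihood test, adjusted p at most 0.05), where 32.1% of all tested genes were called higher and 24.3% lower. The nuclear members' median was 0.27 on the log2 scale, against 0.06 over all genes tested. No mitochondrial member was called by edgeR or DESeq2, and none had an unadjusted p under 0.05; their median was -0.01. Calls fell in every complex, with 25 of 36 members of complex I, 2 of 4 of complex II, 6 of 8 of complex III, 9 of 13 of complex IV and 7 of 17 of complex V. Without the male library 17 members were called higher, and without diestrus 59 were and 1 mitochondrial member was called lower.

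Cox6a2, known as the heart and muscle form of a complex IV subunit, had by far the widest difference. It measured 72.2, 98.5 and 131 CPM in GABAergic neurons of estrus, diestrus and male, and 0.08, 1.67 and 1.65 in glutamatergic neurons. The 2 classes did not overlap. The glutamatergic levels rested on 5, 98 and 60 UMIs. They lay at or under those in red cells (0.278, 5.09 and 3.08 CPM, with haemoglobin in the denominator) and are not taken as expression here. The part of RNA free in the droplets in them was not tested. The gene passed the test's minimum of 10 CPM through the GABAergic level alone, and no fold or test is given for it. Ndufa12, an accessory subunit of complex I, had 368, 319 and 346 CPM in GABAergic and 231, 231 and 220 in glutamatergic neurons, again without overlap (0.60 on the log2 scale, edgeR adjusted p = 0.000155). Sdhc, a membrane anchor of complex II, had 87.9, 68.5 and 79.5 against 52.7, 50.6 and 47.7 (0.64, adjusted p = 0.000176). Cox4i1, the general form of the largest nuclear subunit of complex IV, differed by 0.08 and was not called (adjusted p = 0.433).

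Within GABAergic neurons, those with at least 5 Pvalb UMIs were higher still. Pvalb encodes parvalbumin, a calcium buffer of fast-spiking interneurons, and 16, 34 and 35 cells passed in estrus, diestrus and male. Their nuclear members summed to 48531, 40909 and 45549 CPM, against 33240, 30987 and 30868 in the other GABAergic neurons, with no overlap. Of 78 members tested 66 were higher and 0 lower, where 14.4% of all genes tested were called higher and 12% lower, and the median was 0.47 against 0.03 over all genes. All 4 members of complex II and all 8 of complex III were called higher, with 26 of 36 of complex I, 12 of 13 of complex IV and 16 of 17 of complex V. The number called ranged from 49 without male to 65 without diestrus. A count of at least 5 Pvalb UMIs favours cells with more UMIs, and its part in the difference was not tested.

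Cox6a2 led here too, with 327, 461 and 488 CPM in the Pvalb-gated cells and 37.0, 54.3 and 57.6 in the other GABAergic neurons. Its log2 difference was 3.11, 3.07 and 3.06 in the 3 libraries (fitted 3.10, adjusted p = 1.17e-08). Cox7b, a small subunit of complex IV, had 944, 1051 and 1156 against 548, 618 and 638 CPM (0.80, adjusted p = 3.36e-05). Atp5g3, 1 of 3 genes for the same rotating c subunit of ATP synthase, had 1278, 751 and 772 against 713, 476 and 428 (0.78, adjusted p = 5.83e-05). The ranges of the gated and the other cells did not overlap for either gene. Of the mitochondrial members 12 of 13 were higher, led by mt-Nd1 (0.83, adjusted p = 0.000256), whereas mt-Nd6, read from the other strand, was not called (0.34, adjusted p = 0.339). The diestrus library held the highest mitochondrial sum of the gated cells, 104815 CPM against 52295 and 55289, and 16 of its 34 cells had over 15% mitochondrial UMIs, against 0 in estrus and 2 in male.

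Microglia were lower than glutamatergic neurons in both genomes. Of 77 nuclear members tested 68 were lower and 0 higher, where 42.4% of all genes tested were called lower and 35.2% higher. The median was -1.03, against -0.15 over all genes. All 13 mitochondrial members were lower as well, from -1.33 for mt-Atp6 (adjusted p = 0.000511) to -0.66 for mt-Nd6 (adjusted p = 0.0182). The calls took in 32 of 36 members of complex I, 2 of 4 of complex II, 7 of 8 of complex III, 11 of 12 of complex IV and 16 of 17 of complex V. Leaving out diestrus left 10 nuclear and 8 mitochondrial members called lower.

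Ndufa5, an accessory subunit of complex I, had 58.2, 162 and 200 CPM in microglia of estrus, diestrus and male and 304, 461 and 392 in glutamatergic neurons. The ranges did not overlap (-1.62, adjusted p = 0.00753). Atp5md, a small subunit at the ATP synthase dimer, had 81.9, 265 and 292 against 426, 739 and 557 (-1.60, adjusted p = 0.00851). Atp5g3 had 98.3, 155 and 205 against 566, 448 and 355 (-1.61, adjusted p = 0.0135), and lost the call without diestrus. In all 3 genes the estrus microglia were lowest.

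Oligodendrocytes differed from glutamatergic neurons in the nuclear members and hardly in the mitochondrial ones. Of 77 nuclear members 50 were lower and 2 higher, where 43.9% of all genes were called lower and 32.8% higher, with a median of -0.55 against -0.15. The members called lower were 21 of 36 of complex I, 1 of complex II, 6 of 8 of complex III, 8 of 12 of complex IV and 14 of 17 of complex V. Atp5md (-1.49, adjusted p = 0.000956), Atp5g3 (-1.44, adjusted p = 0.00157) and Ndufa4 (-1.42, adjusted p = 0.00148) fell furthest. Sdhc (0.64, adjusted p = 0.00164) and Ndufa3 (0.44, adjusted p = 0.0184) were the 2 that were higher, and Ndufa3 lost its call without diestrus or without male. The median of the mitochondrial members was 0.18, and mt-Co1, the catalytic subunit of complex IV, was the only 1 called (0.78, adjusted p = 0.0268; 6759, 6005 and 5814 CPM against 3041, 3743 and 4081 in estrus, diestrus and male). Without diestrus 10 nuclear members and without estrus 47 were called lower, and mt-Co1 was not called in either case.

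Astrocytes showed a smaller difference, and the share of members called lower was under that of all genes. Of 77 nuclear members 26 were lower and 4 higher than in glutamatergic neurons, where 40.9% of all genes were called lower and 34.6% higher, with a median of -0.29 against -0.11. With the stricter class assignment 42 nuclear members were called lower. Cox7a2l, a factor that joins complexes III and IV, had 85.4, 99.1 and 106 CPM in astrocytes and 242, 176 and 170 in glutamatergic neurons (means of 96.8 and 196, adjusted p = 0.00406). Atp5g1 (-0.91, adjusted p = 0.0064) and Ndufa4 (-0.83, adjusted p = 0.00948) were lower too. The 4 higher members included Sdhc (0.60, adjusted p = 0.00239), Ndufc2 of complex I (0.49, adjusted p = 0.032) and Sdhd of complex II (0.45, adjusted p = 0.0237). Of the mitochondrial members mt-Nd1 was called lower (-0.83, adjusted p = 0.00881). Without diestrus 1 nuclear and 0 mitochondrial members were called lower, and without estrus 4 mitochondrial members were.

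Endothelial cells gave few calls: 7 of 77 nuclear members were lower and 4 higher, where 36.3% of all genes were called lower and 31.8% higher. The median was -0.37 against -0.08 over all genes. Ndufa7 of complex I was higher (0.96, adjusted p = 0.0132), with 360, 595 and 688 CPM against 244, 305 and 268. Ndufs1, the largest iron-sulphur subunit of complex I, was lower (-0.94, adjusted p = 0.00703), with 35.9, 50.3 and 55.4 against 89.1, 89.3 and 88.9. The ranges of both genes did not overlap. Atp5j of complex V (0.58, adjusted p = 0.0424) and Cox7a2l (0.60, adjusted p = 0.0384) were higher, Atp5md (-0.97, adjusted p = 0.0272) and Atp5g1 (-0.95, adjusted p = 0.0397) lower, and mt-Nd1 was the mitochondrial member called (-0.80, adjusted p = 0.0177). Leaving out diestrus left 0 members called lower, by edgeR, and leaving out male left 21 nuclear and 0 mitochondrial ones; without estrus 6 mitochondrial members were called lower.

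**Figure D2:**
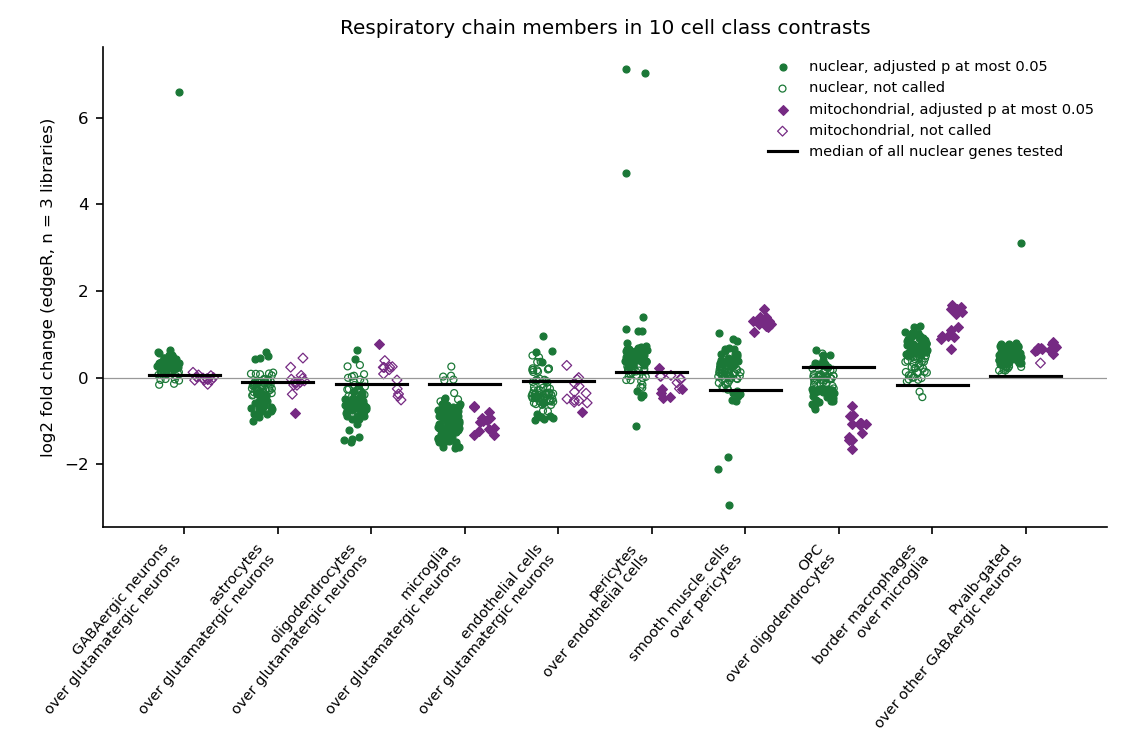
Fitted log2 differences of every tested member in the 10 contrasts between cell classes, nuclear and mitochondrial members apart, with filled points for adjusted p at most 0.05 (edgeR quasi-likelihood test) and a bar for the median of all nuclear genes tested. The medians of nuclear and mitochondrial members lie apart in smooth muscle cells over pericytes (0.14 and 1.30) and in precursors over oligodendrocytes (-0.15 and -1.08).

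Among vascular cells, pericytes and smooth muscle cells differed most in the mitochondrial members. Pericytes against endothelial cells had 48 of 80 nuclear members higher and 4 lower, where 27.6% of all genes were called higher and 20.9% lower (median 0.39 against 0.13). The calls took in 23 members of complex I, 2 of complex II, 4 of complex III, 9 of 15 of complex IV and 10 of complex V. Mitochondrial members had a median of -0.12, with mt-Cytb higher (0.22) and 5 lower, mt-Co1 furthest (-0.48). The 4 lower nuclear members included Ndufa4 (-1.12), Cox7a2l (-0.44, adjusted p = 0.00947) and Atp5j (-0.40, adjusted p = 0.0053). The 48 higher ones included Cox4i2 and Cox6b2, which passed the test's minimum through the pericytes alone. Without diestrus 30 nuclear members were called higher, and 3 mitochondrial members were called lower without estrus or without diestrus. DESeq2 called 25 nuclear members higher.

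Smooth muscle cells against pericytes had all 13 mitochondrial members higher, from 1.06 for mt-Nd6 (adjusted p = 9.73e-05) to 1.59 for mt-Nd4 (adjusted p = 7.96e-10). The subunit mt-Nd4 of complex I had 5302, 8217 and 7478 CPM in smooth muscle cells and 1910, 2772 and 2251 in pericytes, with no overlap. Of the nuclear members 27 of 80 were higher and 9 lower, Cox6b2 among them, where 13.2% of all genes were called higher and 27.2% lower. Ndufa13 of complex I had 776, 930 and 1207 CPM in smooth muscle cells and 446, 548 and 594 in pericytes (0.86, adjusted p = 4.68e-06), and Sdhc had 203, 202 and 178 against 96.7, 91.9 and 98.5 (1.04, adjusted p = 1.38e-05). All 9 called members of complex V were higher. Without estrus 17 members were called higher. Scaling by trimmed means moved the median over all genes from -0.28 to -0.05, the members called to 49 higher and 3 lower, and the share of all calls that were higher from 32.4% to 52.2%.

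Precursors and mature oligodendrocytes also parted by genome. All 13 mitochondrial members were lower in the precursors, from -1.64 for mt-Co1 (adjusted p = 2.19e-05) to -0.65 for mt-Nd2. The level of mt-Co1 was 1759, 2229 and 1970 CPM in precursors against 6759, 6005 and 5814 in oligodendrocytes, with no overlap. Of 78 nuclear members 33 were lower and 9 higher, where 22.6% of all genes were called lower and 42.5% higher, with a median of -0.15 against 0.25. Cox4i1 had 543, 554 and 685 CPM in precursors and 947, 806 and 966 in oligodendrocytes (-0.61, adjusted p = 0.0015). Ndufs7, an iron-sulphur subunit of complex I (-0.66, adjusted p = 0.0004), and Ndufa3 (-0.72, adjusted p = 0.00033) were lower, and Ndufs4 of the same complex was higher (0.65, adjusted p = 0.00038), with 186, 187 and 213 against 123, 122 and 129. Ndufa12 (0.53, adjusted p = 0.00119) and Ndufa4 (0.53, adjusted p = 0.00164) were higher too. Without diestrus 14 and without male 15 nuclear members were called lower. Scaling by trimmed means gave 50 lower and 2 higher.

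Border macrophages, which sit in the meninges and around vessels, were higher than microglia in both genomes. All 13 mitochondrial members were higher, from 0.65 for mt-Nd5 to 1.69 for mt-Co2 (adjusted p = 1.37e-06). Of 77 nuclear members 41 were higher and 0 lower, where 11.9% of all genes were called higher and 19.2% lower, with a median of 0.55 against -0.18. Complex IV had 11 of 12 members higher, complex V had 9 of 17, complex I had 18 of 36, and none of complex II was called. Ndufb7 of complex I had 278, 285 and 371 CPM in border macrophages and 99.6, 139 and 190 in microglia (1.16, adjusted p = 4.5e-05). Ndufa3 (1.18, adjusted p = 5.44e-05) and Atp5j2 of complex V (1.04, adjusted p = 0.000145) were the other two furthest. The macrophages were 69, 85 and 63 cells, and their summed microglial markers were 949 to 1157 CPM, whose part was not tested. Without diestrus 22 and without male 26 nuclear members were called higher.

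Several complex IV subunits come as a general form and a form of restricted tissue, and here the restricted forms had their highest means in pericytes (Cox4i2 and Ndufa4l2), GABAergic neurons (Cox6a2) and fibroblast-like cells (Cox6b2). Cox4i2, the form of Cox4i1 known for lung and for low oxygen, had 1006, 610 and 821 CPM in pericytes (812 ± 198, SD, n = 3), 184, 163 and 217 in smooth muscle cells and 7.82, 4.23 and 5.12 in endothelial cells. Glutamatergic neurons had 1.55, 0.986 and 1.46, near the red-cell level of 0.834, 1.13 and 1.15. Against endothelial cells it passed the test's minimum through the pericytes alone, so no test is given, and the difference of smooth muscle cells from pericytes was -2.12 (edgeR adjusted p = 5.09e-09). Cox4i1 was present beside it, at 993, 1100 and 1241 CPM in pericytes.

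Ndufa4l2, a paralog of Ndufa4, had 2128, 1334 and 1430 CPM in pericytes (1630 ± 433, SD, n = 3), 573, 371 and 431 in smooth muscle cells and 18.5, 10.0 and 8.87 in endothelial cells. The groups did not overlap (7.04 in pericytes over endothelial cells, adjusted p = 1.59e-11). Its partner Ndufa4 was lower in pericytes, at 138, 499 and 614 CPM, than in endothelial cells, at 527, 832 and 1072 (-1.12, adjusted p = 0.000428). The difference in Ndufa4 was -1.93, -0.73 and -0.80 within the estrus, diestrus and male libraries, and the ranges of the 2 classes overlapped across libraries but not within one. Smooth muscle cells had less Ndufa4l2 than pericytes (-1.83, adjusted p = 9.15e-10) and more Ndufa4 (0.89, adjusted p = 0.000853). Ndufa4 was highest in the Pvalb-gated neurons, at 1857, 1610 and 1755 CPM.

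Cox6b2, known as the testis form of Cox6b1, was rare everywhere, with 36.3, 39.9 and 43.9 CPM in pericytes (36, 40 and 33 UMIs). Endothelial cells had 1.19, 1.38 and 2.17, and smooth muscle cells 6.46, 4.93 and 0. Both comparisons passed the minimum through the pericytes alone, and no test is given for them. Fibroblast-like cells reached 36.9, 71.9 and 89.5, above pericytes in diestrus and male, and astrocytes had 12.6, 17 and 17.8. Cox7b2 stayed below the test's minimum but measured 11.1, 8.06 and 14.1 in astrocytes against 3.35, 3.13 and 3.33 in glutamatergic neurons. Cox7a1, the muscle form of Cox7a2, peaked in fibroblast-like cells with 3, 18 and 4 UMIs, and Cox8c had 1 UMI, in male endothelial cells. Cox7a1, Cox7b2, Cox8b and Cox8c passed the minimum of 10 CPM in none of the 10 contrasts; Cox4i2, Cox6a2 and Ndufa4l2 missed it in 8, and Cox6b2 in 7.

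**Figure D3:**
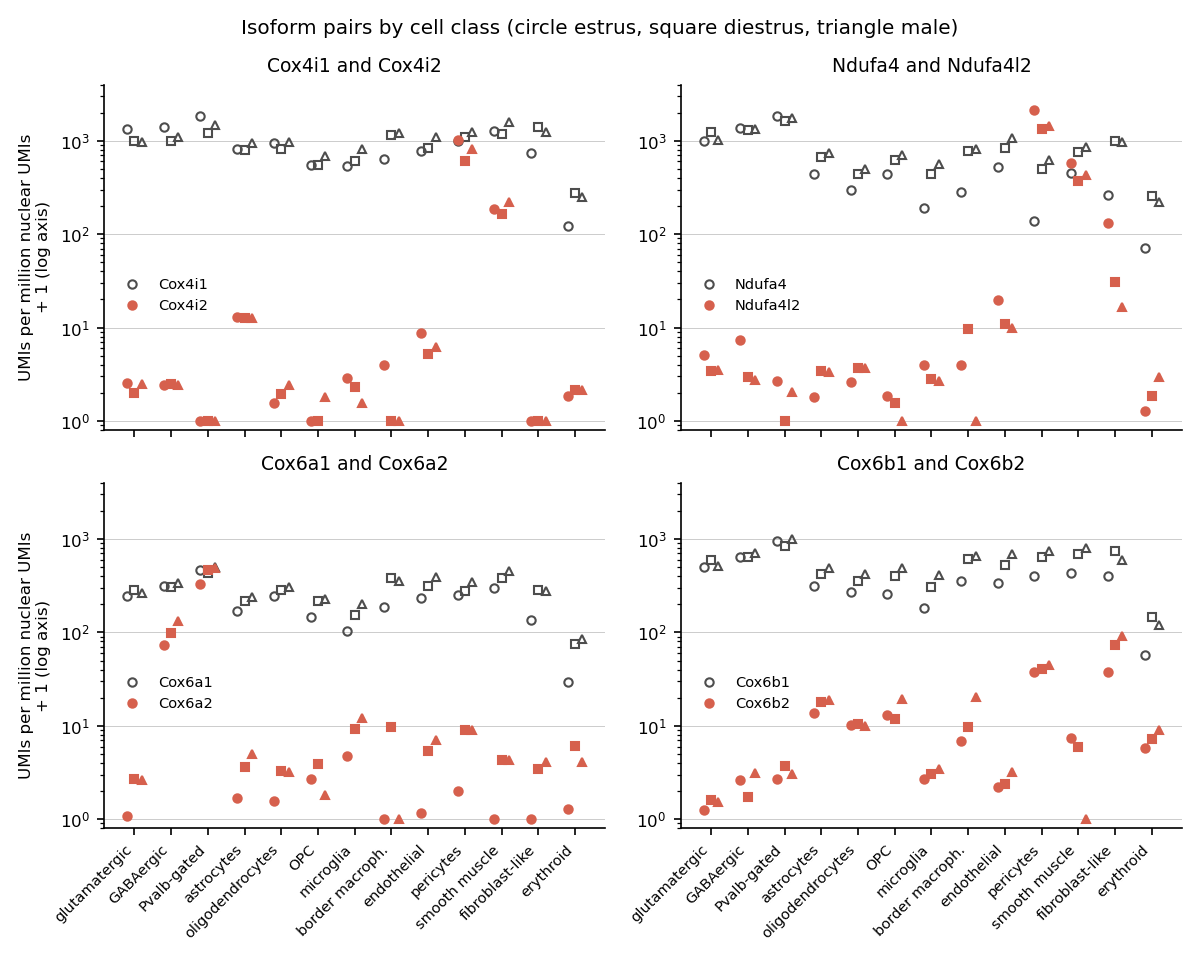
Levels in CPM (log axis) plus 1 of the restricted complex IV forms Cox4i2, Ndufa4l2, Cox6a2 and Cox6b2 (filled) beside their general partners (open), by class, with 1 symbol per library. Cox4i2 and Ndufa4l2 peak in pericytes (610 to 1006 and 1334 to 2128 CPM), and Cox6a2 in the Pvalb-gated neurons (327 to 488).

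The starts of these genes are shown because the general and restricted forms move apart between classes. Of the 85 nuclear members, 67 matched the RefSeq promoter table (GRCm38.p6); Cox4i1, Cox4i2, Cox6a2 and Ndufa4l2 did not. The 250 bases before the annotated start, on the gene's own strand, read as follows, with capitals for matches to GCGCATG, a core of the nuclear respiratory factor 1 (NRF1) motif, or to CCGGAAG, an ETS-type motif, on either strand. Cox6a1 lies at chr5:115348959-115349208, Ndufa4 at chr6:11907451-11907700, Cox6b1 at chr7:30626115-30626364 and Cox6b2 at chr7:4753095-4753344, all on the minus strand.
Cox6a1: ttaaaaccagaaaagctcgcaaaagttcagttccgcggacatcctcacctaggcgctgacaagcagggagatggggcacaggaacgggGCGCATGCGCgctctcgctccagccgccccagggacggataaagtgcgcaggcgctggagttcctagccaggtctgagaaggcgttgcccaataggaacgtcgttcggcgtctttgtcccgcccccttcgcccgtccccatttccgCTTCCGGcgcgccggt
Ndufa4: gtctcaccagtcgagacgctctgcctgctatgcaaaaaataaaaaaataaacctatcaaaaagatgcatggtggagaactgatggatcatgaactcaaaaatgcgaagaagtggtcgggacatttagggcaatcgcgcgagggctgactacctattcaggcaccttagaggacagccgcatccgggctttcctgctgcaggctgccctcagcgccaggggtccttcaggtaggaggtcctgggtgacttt
Cox6b1: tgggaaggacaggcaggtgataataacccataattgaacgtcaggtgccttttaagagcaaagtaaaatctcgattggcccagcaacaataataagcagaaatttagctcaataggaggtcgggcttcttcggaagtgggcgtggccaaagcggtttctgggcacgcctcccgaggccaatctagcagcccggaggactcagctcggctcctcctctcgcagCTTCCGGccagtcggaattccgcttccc
Cox6b2: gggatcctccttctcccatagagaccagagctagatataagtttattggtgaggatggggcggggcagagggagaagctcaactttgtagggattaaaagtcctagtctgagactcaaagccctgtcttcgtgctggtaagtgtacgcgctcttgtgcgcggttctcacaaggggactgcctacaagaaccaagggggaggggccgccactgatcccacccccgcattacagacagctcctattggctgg
GCGCATG was found in 10 of the 67 members (14.9%) and in 995 of all 27025 genes in the table (3.68%). The 10 were Cox5b and Cox6a1 of complex IV, Ndufa6, Ndufa8, Ndufa11 and Ndufb6 of complex I, Sdhb of complex II, and Atp5g2, Atp5k and Atp5l of complex V; in Cox6a1 it overlaps its own match on the other strand. CCGGAAG was in 12 members (17.9%), Cox6a1 and Cox6b1 among them, against 7.83% of genes. ACGTG, the core of the hypoxia response element, was in 13 members (19.4%) against 18.5%, and TATAAA in 7 (10.4%) against 14.3%; both were searched on either strand, and none of the 4 windows shown holds them. These are matches of letters in a window, not sites of binding.

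The 3 genes of the c subunit of ATP synthase, Atp5g1, Atp5g2 and Atp5g3, encode the same mature protein and differed by class. Atp5g1 and Atp5g3 had means of 945 and 934 CPM in Pvalb-gated neurons, 572 and 457 in glutamatergic neurons and 311 and 166 in oligodendrocytes. Atp5g2 had 282, 279 and 339 in the same classes and 629 in smooth muscle cells. Reads could be split between such similar genes in the counting, so these levels are uncertain, as is that of Ndufb1-ps.

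The make-up of the mitochondrial members was similar in all classes, with some shifts. In glutamatergic neurons mt-Co3 took 20.4% of the mitochondrial members' UMIs, mt-Atp6 18.9%, mt-Co2 13.8% and mt-Cytb 12.6% (means of 3 libraries), while mt-Nd6 took 0.14%. In oligodendrocytes mt-Co1 took 12.3% (11.4% to 13.2% over libraries) against 7.96% in glutamatergic neurons (7.55% to 8.48%). The complex I subunit mt-Nd1 took 4.52% in oligodendrocytes and 6.78% in glutamatergic neurons. Its share was lower still in pericytes (4.13%), smooth muscle cells (4.04%), astrocytes (4.02%) and fibroblast-like cells (3.51%). The complex III subunit mt-Cytb took 8.40% in border macrophages. In smooth muscle cells mt-Atp6 took 22.7%, and in pericytes 22.9%. For these genes the ranges over libraries of oligodendrocytes, border macrophages and smooth muscle cells did not overlap those of glutamatergic neurons. Rarer members also shifted between libraries: in glutamatergic neurons mt-Nd4l took 0.427% to 1.29% and mt-Nd3 1.05% to 2.33%, each lowest in estrus. The genes mt-Atp8 and mt-Atp6, and mt-Nd4l and mt-Nd4, overlap, and the sources used here do not say if counting used strand, so their split, and that of mt-Nd6 from the transcripts opposite, is uncertain.

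The mitochondrial members' level went with depth in neurons and also in oligodendrocytes. The median oligodendrocyte of 500 to 2500 nuclear UMIs had 20.0%, 18.2% and 11.9% of its UMIs from them in estrus, diestrus and male. At 5000 to 10000 it had 4.79%, 4.90% and 4.15%. In glutamatergic neurons with 2500 to 5000 nuclear UMIs, the median cell had 14.2%, 15.0% and 13.2% of its UMIs from the mitochondrial members in estrus, diestrus and male. In those with 40000 or more it had 2.71%, 3.05% and 2.71%. The nuclear members took 0.944%, 1.97% and 1.51% of nuclear UMIs in the shallow cells and 3.06%, 3.65% and 3.16% in cells with 20000 to 40000. The cells under 2500 followed no such order, with 28.2%, 2.41% and 5.54% mitochondrial. From 2500 UMIs upwards the mitochondrial percent fell with each bin in all 3 libraries, except that it hardly moved above 20000. The nuclear percent had no single direction: it was lower at 5000 to 10000 UMIs (0.849%, 1.46% and 1.26%) than at 2500 to 5000, and lower at 40000 or more (2.84%, 2.93% and 2.46%) than at 20000 to 40000. The shallow bin held 53 of 1677 cells in estrus, 209 of 2323 in diestrus and 423 of 2208 in male. Among cells with at least 10000 nuclear UMIs, an alternative chosen after seeing the data, the mean mitochondrial level of glutamatergic neurons was 36601 CPM against 45803 over all of them, and the ratio to nuclear members 1.25 against 1.64.

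**Figure D4:**
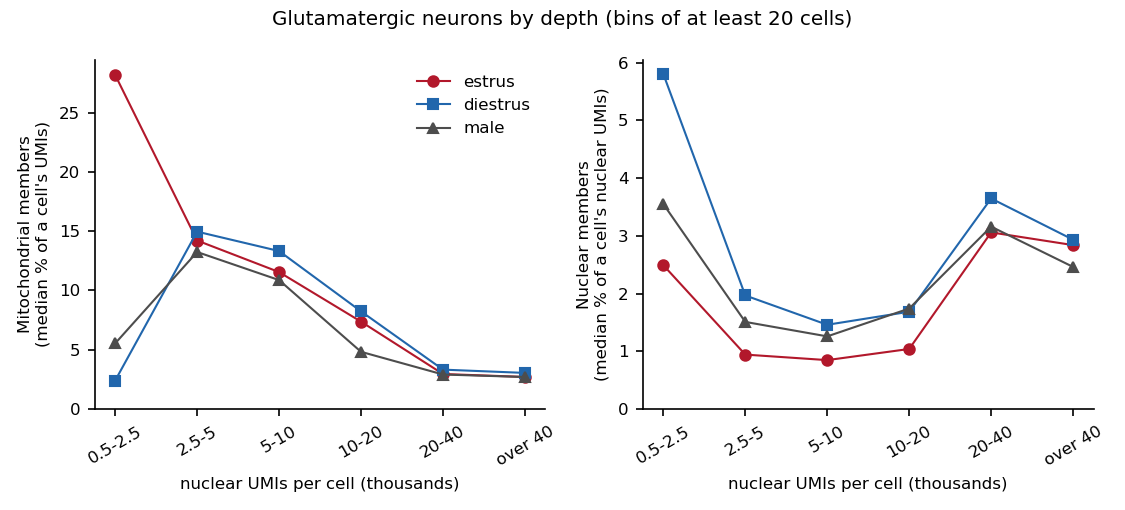
Median percent of a glutamatergic neuron's UMIs from the mitochondrial members, and of its nuclear UMIs from the nuclear members, by bin of nuclear UMIs per cell, 1 line per library. The mitochondrial percent falls from between 13.2 and 15.0 in the 2500 to 5000 bin to between 2.71 and 3.05 at 40000 or more.

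Between libraries, the median nuclear member was lower in estrus than in male in all 9 non-neuronal brain classes and near 0 in neurons. Ratios are log2 of levels plus 1 CPM, over members with at least 100 UMIs in the pair and an average level of 20 CPM or more; the pairs share libraries, and each value compares 2 libraries, not 2 conditions. In microglia the median member was at -0.90 in estrus over male, with 51 of 77 at least 1.5-fold lower and 0 higher, where 11.2% of all genes were that much lower and 4.00% higher. Against diestrus the median was -0.56 and 35 members were lower (all genes 7.02%), whereas diestrus over male had a median of -0.30 and 0 members past 1.5-fold (all genes 1.46% lower and 0.616% higher). In endothelial cells the median was -0.66 in estrus over male, with 42 of 77 lower (all genes 16.5%), and -0.45 in estrus over diestrus, with 32 lower (all genes 11.9%).

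The other classes followed to a smaller or less certain degree. Border macrophages had 28 of 39 members lower in estrus than in male (median -0.86, all genes 15.0%) and fibroblast-like cells 35 of 55 (median -0.77, all genes 35.4%). Pericytes had 33 of 79 (median -0.44, all genes 9.99%), precursors 28 of 77 (median -0.36, all genes 6.32%), smooth muscle cells 28 of 79 (median -0.34, all genes 7.89%), oligodendrocytes 26 of 77 (median -0.32, all genes 5.68%) and astrocytes 22 of 77 (median -0.31, all genes 7.52%). The median of all genes lay between -0.07 and 0.04 in these classes, except in fibroblast-like cells (-0.22). Ribosomal protein genes, another abundant group, had medians of -0.76 in fibroblast-like cells, -0.40 in astrocytes, -0.38 in precursors, -0.31 in border macrophages, -0.28 in endothelial cells, -0.25 in oligodendrocytes, -0.22 in smooth muscle cells and -0.14 in microglia and in pericytes. In astrocytes, precursors and fibroblast-like cells these medians lay close to or below those of the members.

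In neurons the medians lay nearer to 0. Glutamatergic neurons had a median of 0.07 in estrus over male, with 6 of 77 members higher and 0 lower (all genes 6.22% and 5.09%). Estrus over diestrus had a median of -0.00, with 1 higher and 11 lower (all genes 2.85% and 2.99%). Diestrus over male had 77 of 77 members above 0 with a median of 0.17, and 0 past 1.5-fold (all genes 0.296% higher and 0.645% lower). GABAergic neurons had medians of 0.15, 0.05 and -0.10 in the 3 pairs, with 18 higher and 2 lower in estrus over diestrus (all genes 6.89% and 7.92%). The mitochondrial members had other signs: in estrus over male their median was -0.54 in glutamatergic neurons, -0.41 in GABAergic neurons, -0.47 in microglia, -0.43 in precursors and -1.20 in fibroblast-like cells, and between -0.06 and 0.17 in astrocytes, oligodendrocytes, border macrophages, endothelial cells, pericytes and smooth muscle cells.

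**Figure D5:**
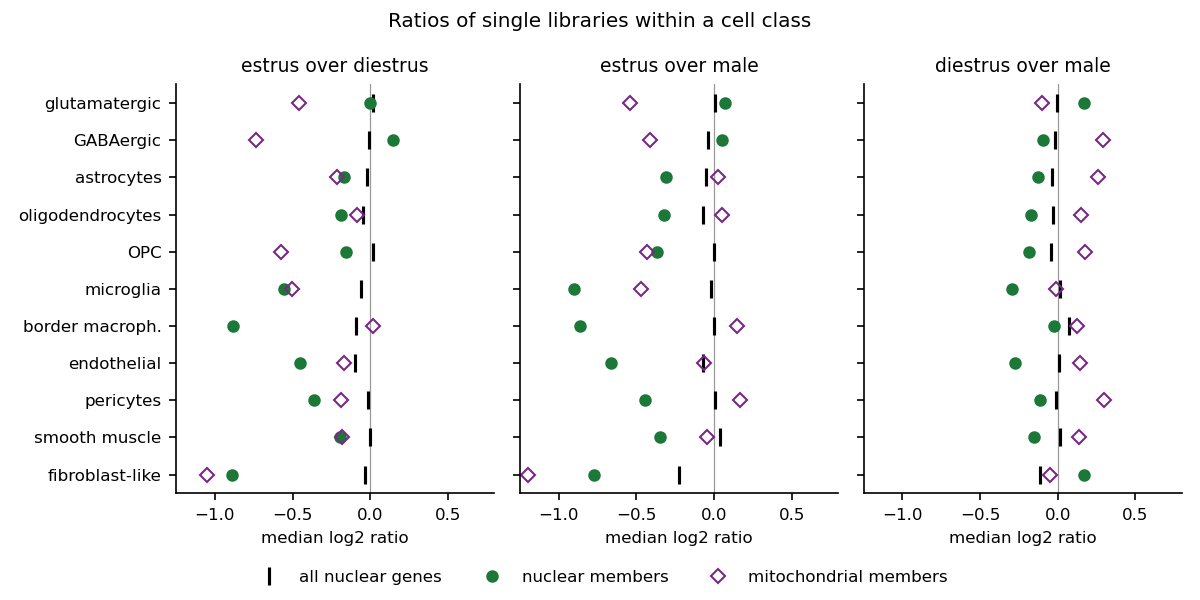
Median log2 ratio between 2 libraries of the nuclear members, the mitochondrial members and all nuclear genes in each class, 1 panel per library pair; OPC are oligodendrocyte precursors. In estrus over male the nuclear median is -0.90 in microglia and 0.07 in glutamatergic neurons.

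Some members, chosen after their values were seen, lay on 1 side of 0 in all or nearly all classes. The subunit Atp5md was below 0 in estrus over male in 11 of 11 classes (median -0.99), at least 1.5-fold in 9 of them, and Uqcr11 of complex III (median -1.14) and Cox6c of complex IV (median -0.98) likewise in 11 and 9. Sdhd, the other membrane anchor of complex II, went the other way: it was above 0 in 9 of the 9 classes where it had enough UMIs, with a median of 0.68. In glutamatergic neurons Sdhd had 75.7, 44.2 and 31.3 CPM in estrus, diestrus and male, Atp5d, the delta subunit of complex V, had 535, 364 and 308, and Ndufa8 of complex I 296, 203 and 177. Atp5mpl of complex V ran otherwise with 216, 386 and 298, highest in diestrus. Ndufa3 of complex I had 129, 226 and 177 there, and 59.8, 133 and 146 in microglia.

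Annotated transcript length went with these ratios among the members, a property looked at after their values were seen. In estrus over male in microglia, the 47 members with transcripts under 800 bases had a median of -1.14, with 43 past 1.5-fold lower, and the 29 longer ones -0.40, with 7. Over all nuclear genes, 200 of 910 short ones (median -0.16) and 555 of 5907 longer ones (median 0.00) were that much lower. In glutamatergic neurons the medians of the short and longer members were -0.06 and 0.39. Spearman's rho between length and ratio over members was 0.59 in both classes, given as a description since the members share libraries and depth. Over all genes the same rho was 0.22 in microglia, of the same sign, and -0.33 in glutamatergic neurons, of the opposite sign. In diestrus over male it was 0.01 among members in microglia and -0.41 in glutamatergic neurons. Depth per cell moved with the libraries as well. Within microglia of 2500 to 5000 nuclear UMIs the nuclear members summed to 10496, 15926 and 17336 CPM in estrus, diestrus and male. Over all microglia they summed to 9483, 14673 and 18165. Within each library the share also differed with depth. The median cell had 0.991%, 2.33% and 2.80% of nuclear UMIs from the nuclear members at 500 to 2500 UMIs. At 5000 to 10000 it had 0.880%, 1.26% and 1.37%. The part of depth in the ratios was not tested. Lengths were medians over a gene's protein-coding transcripts in GENCODE vM21, for 84 of the 85 nuclear members.

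Genes that build and supply the chain were compared through separate lists, each read against the shares of all genes called in that contrast. In GABAergic over glutamatergic neurons (all genes 32.1% higher and 24.3% lower), 17 of 42 assembly factors were higher and 1 lower, and 4 of 12 citric acid cycle genes were higher and 0 lower, a share higher like that of all genes. Of 16 glycolysis genes 8 were lower and 2 higher. Ppargc1a, a coactivator of mitochondrial gene expression, was higher (1.23, adjusted p = 1.15e-06), and Ldha, a lactate dehydrogenase subunit, lower (-1.46, adjusted p = 4.42e-07). In the Pvalb-gated cells (all genes 14.4% higher and 12% lower) 11 of 12 citric acid cycle genes (median 0.60) and 11 of 16 glycolysis genes (median 0.56) were higher than in other GABAergic neurons. Esrrg, a nuclear receptor of the regulator list, had 304 against 68.7 CPM there (2.14, adjusted p = 1.97e-07), Cycs, which encodes cytochrome c, 665 against 342 (0.97, adjusted p = 1.2e-05), and Idh3a of the citric acid cycle 231 against 113 (1.03, adjusted p = 1.89e-05).

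In oligodendrocytes and microglia most genes of the citric acid cycle and glycolysis lists were lower than in glutamatergic neurons. Of the citric acid cycle genes 9 of 12 were lower in oligodendrocytes (all genes 43.9%) and 8 of 13 in microglia (all genes 42.4%), and of the glycolysis genes 15 of 16 and 14 of 17. In astrocytes (all genes 34.6% higher and 40.9% lower) 12 of 16 glycolysis genes were lower and 3 higher, but 4 of 13 citric acid cycle genes were lower and 3 higher. Suclg2 of the cycle had 104 CPM in microglia against 3.81 in glutamatergic neurons, and Hk2, a hexokinase, 212 against 2.24. In pericytes over endothelial cells (all genes 27.6% higher and 20.9% lower) 8 of 13 citric acid cycle and 10 of 16 glycolysis genes were higher and 0 lower, and Ppargc1b, a relative of Ppargc1a, had 46.4 against 2.55 CPM. In border macrophages over microglia (all genes 11.9% higher and 19.2% lower) 0 of 13 citric acid cycle genes were higher and 2 lower, and Ldhb was lower (-2.41, adjusted p = 5.54e-08). In smooth muscle cells over pericytes 3 of 40 assembly factors were higher and 9 lower, near the shares of all genes (13.2% and 27.2%).

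The remaining lists cover mobile carriers, mitochondrial DNA expression and regulators of mitochondrial biogenesis. The mobile carriers, cytochrome c and the genes that make ubiquinone, were lower than in glutamatergic neurons for 9 of 10 tested in oligodendrocytes (median -0.57, all genes 43.9% lower) and 8 of 10 in microglia (median -0.99, all genes 42.4% lower), with 0 higher in either. In GABAergic neurons 5 of 11 were higher and 2 lower (all genes 32.1% and 24.3%). Genes of mitochondrial DNA expression, the polymerases and factors that copy and read that genome, gave 4 higher and 0 lower of 10 in precursors over oligodendrocytes, where 42.5% of all genes were called higher and 22.6% lower. The same list gave 0 higher and 1 lower of 11 in smooth muscle cells over pericytes (all genes 13.2% and 27.2%) and 1 higher and 1 lower of 12 in border macrophages over microglia (all genes 11.9% and 19.2%). Regulators gave 7 higher and 3 lower of 10 in microglia over glutamatergic neurons (median 0.76, all genes 35.2% and 42.4%), and 4 higher and 0 lower of 8 in Pvalb-gated over other GABAergic neurons (all genes 14.4% and 12%).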

How the data were processed

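Per the labels' protocols, single cells of 3 libraries were sequenced on an Illumina NovaSeq after 10x 3′ v3.1 capture. The deposited matrices hold raw UMI counts per gene and barcode; the submitters' processing notes name Cell Ranger 3.0.2 and the mm10 build, and the file headers name Cell Ranger 7.0.0. The sources used here do not state the annotation, intron counting or strand setting. The members and all lists were chosen with earlier results of these data known.

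Barcodes with at least 500 genes were assigned to a class when at least 3 markers were found, at 0.3 or more of the class's reference level, with no other class at 2 markers and 0.3; barcodes of more than 1 class (1081, 1339 and 1576 in estrus, diestrus and male) were left out as possible doublets, and no doublet caller was run. Red cells were instead taken at 50% or more of nuclear UMIs from their 5 markers, with no other class as above and no minimum number of genes. Cells with 5% or more of nuclear UMIs from these markers were left out of other classes. Counts were summed per class and library. Class contrasts used the edgeR 4.0.16 quasi-likelihood test (R 4.3.3) with the library as a block, library sizes from nuclear genes, a mean of at least 10 CPM and Benjamini-Hochberg adjustment over all genes tested. With the library as a block, p-values measure how the difference between 2 classes varied over the 3 libraries, with information on spread shared across genes. The 3 libraries were 1 each of estrus, diestrus and male, not replicates of 1 condition. In simulated astrocyte and glutamatergic sums, 99.0% of 98 genes changed by 1 on the log2 scale were called, and 0.137% of unchanged genes. The simulation gave every gene the same relative spread and no difference between libraries beyond depth. These shares therefore do not show how often real differences between the classes were called.

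By rule the text names, in each contrast, the 3 highest and 3 lowest called members with 1 sign in every library, and the isoform pairs. Of the extreme called genes of the lists, and of the extreme members between libraries, it names a part, chosen after their values were seen. The lists hold 46 assembly factors, 18 genes of mitochondrial DNA expression (17 in the files), 10 regulators, 11 mobile carrier genes, 13 citric acid cycle and 17 glycolysis genes. Alternatives were DESeq2 1.42.0, TMM scaling, no filter, no library block, 1 fit of all classes, a stricter class assignment, cells with at most 15% mitochondrial UMIs, cells without the top 5% by UMIs, leaving out each library and, chosen after seeing the data, cells with at least 10000 nuclear UMIs. Intervals and floors cover counting error only.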

Additional observations from a re-analysis of the deposited data

Results flagged for a closer look

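The summed nuclear members were at least 1.5-fold lower in estrus than in male in 4 classes, opposite in direction to glutamatergic neurons. They were lower by less than 1.5-fold in precursors (-0.47), pericytes (-0.46), smooth muscle cells (-0.43), oligodendrocytes (-0.41) and astrocytes (-0.37), and higher in GABAergic neurons (0.07). In the 4 classes the log2 ratio of estrus over male was -0.938 in microglia, -0.92 in border macrophages, -0.762 in endothelial cells and -0.699 in fibroblast-like cells, against 0.10 in glutamatergic neurons. With 1 library per group, the difference between these classes was not tested. The libraries also differed in depth, and glutamatergic neurons had median nuclear UMIs of 36051 in estrus and 10155 in male.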

How the results depend on the processing

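Counts of members called are given in the order of the text: GABAergic, astrocyte, oligodendrocyte, microglia and endothelial over glutamatergic, then pericyte over endothelial, smooth muscle over pericyte, precursor over oligodendrocyte, border macrophage over microglia and Pvalb-gated over other GABAergic. Of the counts under all alternatives, 171 were within 1.5 times the main count and 53 were not; the cause was not tested unless the alternative itself holds it.

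Without the library block, nuclear calls were 10 in GABAergic neurons, 16 in pericytes, 6 in smooth muscle cells, 8 in precursors, 2 in border macrophages and 14 in Pvalb-gated neurons, and mitochondrial calls were 8 in microglia, 2 in endothelial cells, 0 in pericytes and 0 in Pvalb-gated neurons. With all classes in 1 fit, nuclear calls were 12 in GABAergic neurons, 37 in endothelial cells, 12 in smooth muscle cells, 13 in precursors and 31 in Pvalb-gated neurons, and mitochondrial calls 2 in astrocytes, 7 in endothelial cells and 0 in pericytes. With TMM scaling, nuclear calls were 13 in endothelial cells, 49 in smooth muscle cells and 50 in precursors. DESeq2 gave 13 in endothelial cells, 25 in pericytes and 2 mitochondrial calls in oligodendrocytes. Stricter class assignment gave 42 in astrocytes, 16 in endothelial cells and 1 mitochondrial call in GABAergic neurons, as did cells with at most 15% mitochondrial UMIs (1). Without the top 5% of cells by UMIs, endothelial cells had 3 nuclear and 2 mitochondrial calls.

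The median over all genes moved with scaling by more than 0.1 in smooth muscle cells (-0.28 to -0.05 with TMM), precursors (0.25 to -0.02), border macrophages (-0.18 to -0.04), oligodendrocytes (-0.15 to 0.04), microglia (-0.15 to -0.02) and astrocytes (-0.11 to -0.00), and by DESeq2 in pericytes (0.13 to 0.01). The share of all calls that were higher went from 65.4% to 49.4% in precursors, from 38% to 48.2% in border macrophages and, by DESeq2, from 57.0% to 46.5% in pericytes.

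Leaving out each library in turn moved nuclear calls between 17 and 59 in GABAergic neurons, 1 and 28 in astrocytes, 10 and 56 in oligodendrocytes, 10 and 70 in microglia, 0 and 21 in endothelial cells, 30 and 47 in pericytes, 17 and 23 in smooth muscle cells, 14 and 31 in precursors, 22 and 36 in border macrophages and 49 and 65 in Pvalb-gated neurons. Mitochondrial calls ranged from 0 to 1, 0 to 4, 0 to 1, 8 to 13, 0 to 6, 3 to 4, 13 to 13, 13 to 13, 12 to 13 and 11 to 13 in the same order.

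Levels changed by more than 1 SD in few cases. With at least 10000 nuclear UMIs per cell the mitochondrial level of glutamatergic neurons was 36601 CPM and its ratio 1.25. With at most 15% mitochondrial UMIs that of oligodendrocytes was 46617. With stricter assignment fibroblast-like cells had 45657 and a ratio of 1.74, resting on 6, 6 and 3 cells in estrus, diestrus and male. Red cells had a ratio of 0.57 with it.

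Nuclear members past 1.5-fold between libraries numbered 18 with TMM scaling in estrus over male in glutamatergic neurons, 18 in GABAergic neurons and 12 in astrocytes. In estrus over diestrus they numbered 12 in oligodendrocytes and 17 in endothelial cells, and in diestrus over male 2 in glutamatergic neurons. With no filter, diestrus over male gave 1 in glutamatergic neurons, 1 in GABAergic neurons, 2 in astrocytes and 1 in endothelial cells. The medians of the mitochondrial members changed sign in 2 cases, diestrus over male in glutamatergic neurons of at least 10000 nuclear UMIs (0.089) and estrus over diestrus in endothelial cells with TMM scaling (0.11).

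Depth limits the rarer members and classes: 8 nuclear members missed the test's minimum in at least 7 contrasts, and the Pvalb-gated class rested on 16 cells in estrus.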
